A study of Mus musculus with 13 samples.

Results

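Expression of 36 genes of glycolysis and of the response to low oxygen was followed in mouse brain after endothelial loss of Pdcd10 and after 7 days of hypoxia. The genes were chosen by symbol, with earlier results of these data known, and were 36 of the 55416 gene identifiers in the count table. They comprised 16 glycolytic enzymes, 2 transporters of glucose or lactate, 4 regulators of glycolysis or of pyruvate use, and 14 other genes known as hypoxia-inducible. All 36 passed the filter on low counts. Ero1a was found under its older symbol Ero1l, and Aldoa was listed under 2 identifiers, of which the one with nearly all counts (ENSMUSG00000030695) was used.

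Bulk messenger RNA was sequenced from brain tissue in 4 groups. Flox normoxia (n = 3) and flox hypoxia (n = 3) were Pdcd10fl/fl mice, in which Pdcd10 is flanked by loxP sites, kept at 21% oxygen or at 12% oxygen for 7 days. KO normoxia (n = 3) and KO hypoxia (n = 4) were Slco1c1-iCreERT2;Pdcd10fl/fl mice at the same oxygen levels, given 50 µg of 4-hydroxytamoxifen on postnatal day 1. Pdcd10, also called Ccm3, is mutated in cerebral cavernous malformation, a disease of enlarged, leaky brain capillaries, and the study asked how hypoxia acts on this disease. The Slco1c1 promoter drives the Cre recombinase, which the series describes as endothelial. The same promoter is also known to be active in choroid plexus epithelium. Cells without active Cre keep the gene. Every group carries the floxed alleles. The series text names Cre-bearing animals without injection as further controls, and whether the flox mice were injected is not clear from it. The labels do not give the age at collection, and they give neither litters nor batches.

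Cells sense oxygen through prolyl hydroxylases that mark the alpha subunits of hypoxia-inducible factors (HIF) for destruction. When oxygen is short, HIF persists, binds a short motif near its target genes and raises glucose transporters, glycolytic enzymes, lactate export and genes of mitophagy, pH control and vessel growth. Many glycolytic steps have several isozymes, of which some (Hk1, Eno2, Ldhb) prevail in neurons and others (Hk2, Eno1, Ldha) are the classical HIF targets.

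The sequence before the start is printed for 6 of the genes, because the results turn on them and the core of the HIF motif occurs there. The core was searched as ACGTG or GCGTG on both strands, from 250 bases before to 50 bases after each start in RefSeq's GRCm38.p6 annotation, an older build than the GRCm39 named by the submitters' processing notes. The ACGTG form overlaps the E-box CACGTG, which other factors bind. At least 1 match was found in 29 of the 33 members with a window (87.9%), against 62.4% of the 13754 tested genes with a window and 46.7% of all 27025. Each printed stretch is the gene's strand from 5′ to 3′, ends at or before the start, and carries the matches in capitals. Bnip3, Ldha, Slc16a3 and Hk2 passed a test below, whereas Pgk1 and Car9, which also hold matches, did not. They come from chr7:138909524-138909623 (Bnip3, minus strand), chr7:46845704-46845803 (Ldha, plus), chr11:120948967-120949066 (Slc16a3, plus), chr6:82774455-82774554 (Hk2, minus), chrX:106186950-106187049 (Pgk1, plus) and chr4:43506926-43507025 (Car9, plus).
Bnip3: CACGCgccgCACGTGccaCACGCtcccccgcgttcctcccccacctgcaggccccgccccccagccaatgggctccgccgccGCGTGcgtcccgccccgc
Ldha: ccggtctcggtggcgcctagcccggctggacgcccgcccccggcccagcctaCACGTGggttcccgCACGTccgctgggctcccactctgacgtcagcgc
Slc16a3: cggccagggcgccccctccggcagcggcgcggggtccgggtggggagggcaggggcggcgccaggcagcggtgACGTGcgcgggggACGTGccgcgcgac
Hk2: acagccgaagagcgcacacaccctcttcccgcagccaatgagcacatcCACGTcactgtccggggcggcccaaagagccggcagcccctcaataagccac
Pgk1: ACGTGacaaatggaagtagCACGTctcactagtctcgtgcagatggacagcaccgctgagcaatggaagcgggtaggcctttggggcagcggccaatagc
Car9: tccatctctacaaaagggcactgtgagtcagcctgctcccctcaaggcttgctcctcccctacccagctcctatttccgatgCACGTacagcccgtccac

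Matches were absent from the windows of Gpi1, Tpi1, Eno2 and Car12. Slc2a3, Bnip3l and Ndrg1 had no window in the table. Genes that passed a test and genes that did not thus both carried the letters, and a match is a description of the sequence, not a bound site.

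Depth was between 42090437 and 71216636 counts per library, so that the 3 counts which a count of 0 allows come to at most 0.0717 CPM (counts scaled to a common library size), counting error only. Every member had counts in every library. The least abundant, Car9, had between 12 and 108, and the next, Adm, between 40 and 347. CPM here are scaled for composition between libraries (TMM), and differences are log2 fold changes ± standard error from edgeR's quasi-likelihood test, called at a Benjamini-Hochberg adjusted p under 0.05 over the 22507 genes tested. Pdcd10 messenger RNA was between 16.2 and 17.8 CPM in flox normoxia, 16.2 and 18.1 in KO normoxia, 17.2 and 17.6 in flox hypoxia and 14.7 and 17.0 in KO hypoxia. It was not called in any contrast, so it does not check the labels. Neuronal, astrocytic and oligodendrocyte markers were present in every library. Choroid plexus content was uneven: its 8 markers summed to 12.17 CPM in KO normoxia replicate 2, against 317 to 530.3 CPM in the other libraries. The member Car12 was also lowest in that library. The cause was not tested. All animals are labelled male, but Xist transcripts prevailed over Y-linked ones in 1 flox normoxia, 1 KO normoxia and 2 KO hypoxia libraries. One library, KO hypoxia replicate 1, was the highest of its 4 for 21 of the 36 genes, and several values are also given without it. Flox normoxia replicate 3 stood apart as well. Its immediate-early genes, described below, summed to 2250 CPM, against 789.9 and 716.6 in replicates 1 and 2. Its Adm level was 3.2 times that of the next flox normoxia library, and its Ddit4 level 1.46 times.

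Per transcript length, the 14 highest members were all enzymes, and the other 2 enzymes, Pfkp and Hk2, ranked lower. In flox normoxia Aldoa, the aldolase of muscle and brain, led with 489.5 ± 4.63 RPKM (SD, n = 3), followed by Ldhb at 198.3 ± 8.74, Eno2 at 185.4 ± 2.15, Pkm at 174 ± 1.62 and Tpi1 at 169.8 ± 3.42. Pkm and Tpi1 lay within their spread of each other, as did Pfkm and Pgam1, both at 112.1. At the low end stood the lactate exporter Slc16a3 (MCT4) at 0.869 ± 0.0537, the vasodilator peptide Adm at 0.845 ± 0.647, the inducible hexokinase Hk2 at 0.695 ± 0.09 and the carbonic anhydrase Car9 at 0.188 ± 0.0642. Libraries of Adm overlapped those of Slc16a3 and of Hk2, whereas Slc16a3 lay above Hk2 in every flox normoxia library. Gapdh, at 38.7 ± 2.37, stood below enzymes that it usually exceeds, and how reads shared with near-identical copies were counted is not known here. Averaged over libraries, Gapdh had 8969 counts and the row named Gapdh-ps15 had 3120. Eno1 had 20050 and Eno1b 14600, Pgam1 had 12990 and Pgam1-ps2 4460, and Bnip3l had 6027 and Bnip3l-ps 1160. Levels of these 4 are uncertain for that reason.

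The 7 days at 12% oxygen left the glycolytic enzymes close to their normoxic levels. In flox brain no member passed the test (0 of 36, 0.0222% of all genes called), and in KO brain none did either (0 of 36, 0.897% of all genes called). At an unadjusted p under 0.05, 6 members were higher in flox and 15 were higher and 1 lower in KO, against 6.65% and 14.3% of all genes. With DESeq2 the flox count stayed at 0, and 5 members rose in KO (Gpi1, Pfkl, Slc16a3, Pdk1 and Bnip3), where it called 3.35% of all genes. With limma on RPKM both counts were 0. Averaged over the 2 genotypes with equal weight, 1 member rose, Bnip3, against 1.05% of all genes called and 0.755% called higher. With single libraries left out this count ran from 0 to 4. It was 4 without flox normoxia replicate 3 (Gpi1, Pfkfb3, Bnip3 and Ddit4, 1.26% of all genes called). It was also 4 without KO hypoxia replicate 2 (1.48%).

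**Figure D1:**
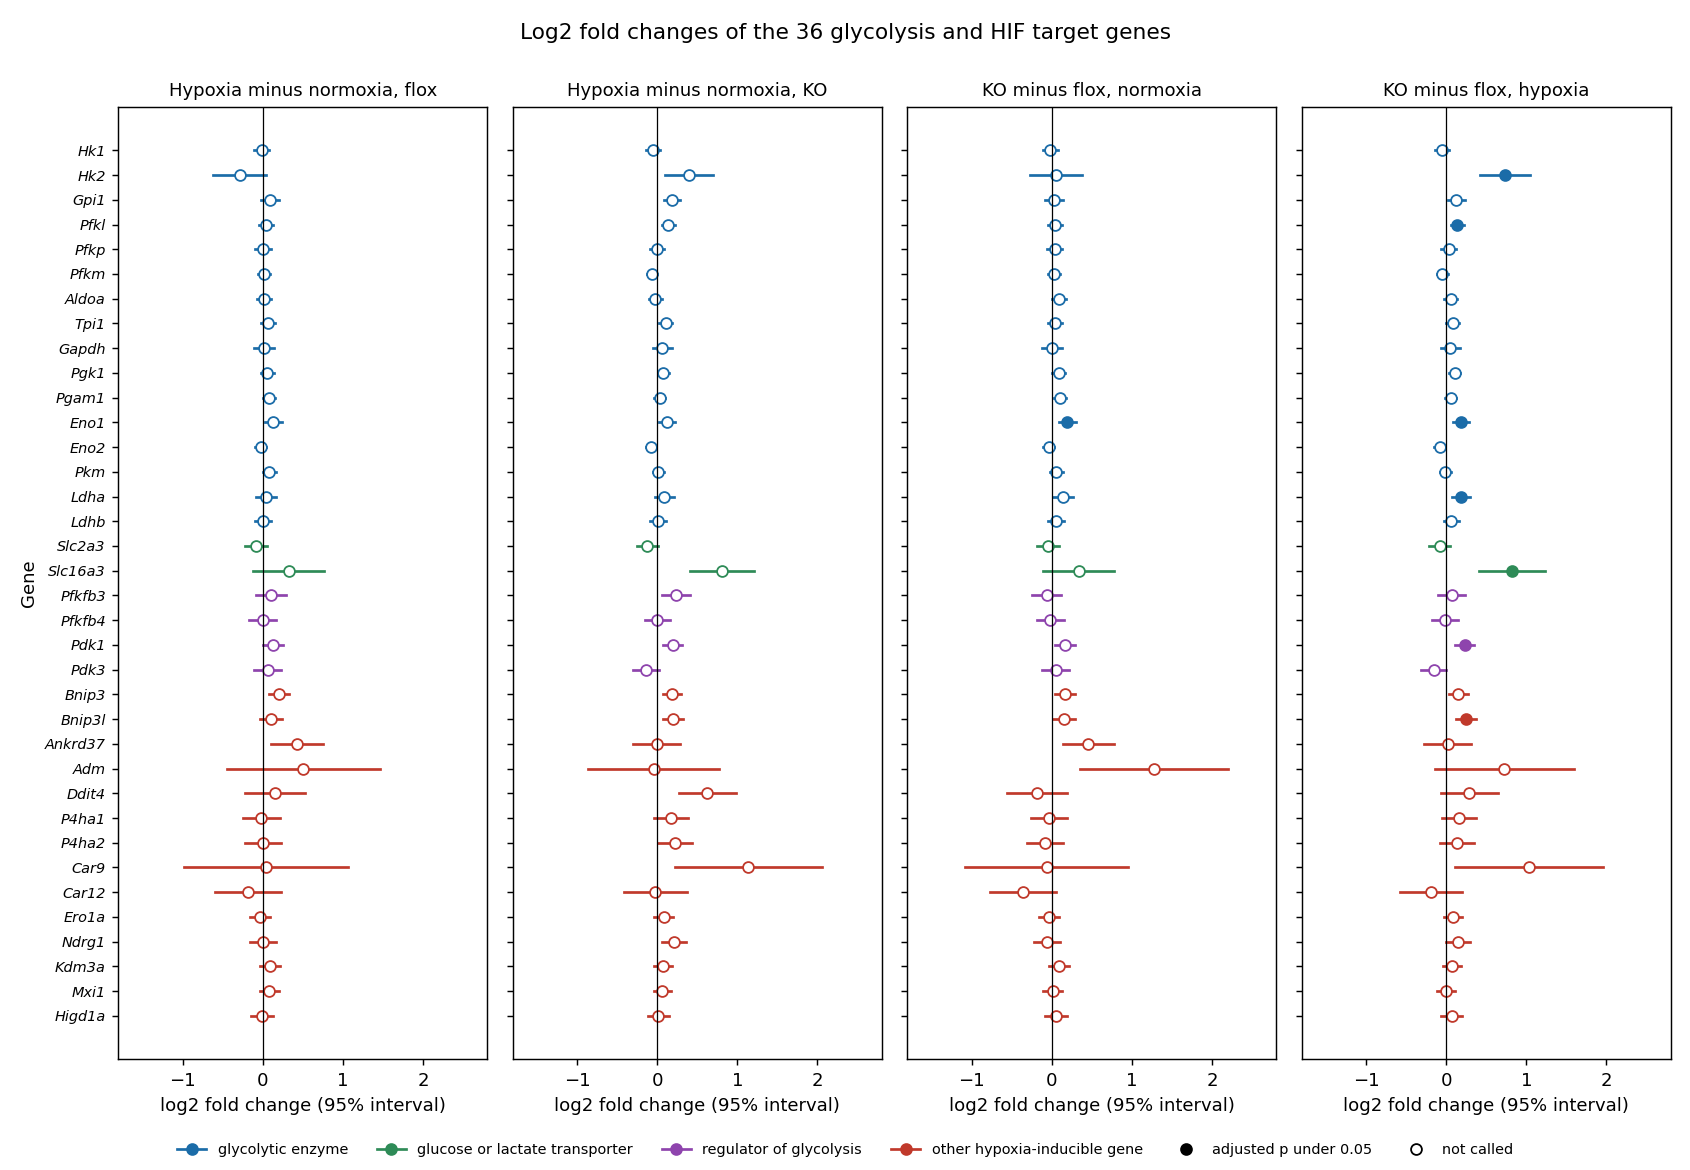
Log2 fold change of each of the 36 genes with its 95% interval (horizontal axis) for the oxygen effect in flox and in KO and for the KO effect in normoxia and in hypoxia, coloured by role, with filled points for genes past the threshold. Filled points appear in the KO panels only, 1 in normoxia and 7 in hypoxia, all to the right of 0.

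The intervals show how small the change was in the enzymes other than Hk2. For the mean oxygen effect all 16 enzymes had a 95% interval within 0.3 on the log2 scale either way (1.23-fold), compared with 9 of the 14 other hypoxia-inducible genes and 54.9% of all genes tested. In flox alone this held for 15 of 16 enzymes, all but Hk2, against 44.2% of all genes. In KO alone it held for the same 15 of 16, against 44% of all genes. Hk2 falls within the bound on average because its effects, -0.29 in flox and 0.39 in KO, have opposite signs. Abundant genes have narrow intervals, so these shares describe precision as well as change. The median log2 fold change of the enzymes was 0.03 in flox and 0.05 in KO, that of the other hypoxia-inducible genes 0.06 and 0.12, and that of all genes 0.00 and 0.01. Without KO hypoxia replicate 1 the median of the other hypoxia-inducible genes in KO was 0.09. Without flox normoxia replicate 3 the medians in flox were 0.05 for the enzymes and 0.08 for the other hypoxia-inducible genes. Fewer cells of a type and less RNA per cell cannot be told apart in these bulk samples.

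Bnip3 (ENSMUSG00000078566), a mitophagy receptor of the outer mitochondrial membrane, was the member with the clearest oxygen effect. Its level was 34.1, 33.4 and 34.9 CPM in flox normoxia and 40.1, 38.2 and 39.9 in flox hypoxia. In KO it was 37.9, 40.4 and 36.8 in normoxia and 47.6, 43.9, 42.03 and 41.3 in hypoxia. Within each genotype every hypoxic library lay above every normoxic one. The mean effect was 0.20 ± 0.04 (edgeR adjusted p = 0.0293), with 0.21 ± 0.06 in flox (adjusted p = 0.448) and 0.19 ± 0.06 in KO (adjusted p = 0.118). The mean call was lost when flox normoxia replicate 1 or 2, KO normoxia replicate 1 or 3, or any flox hypoxia library was left out, with adjusted p between 0.0574 and 0.0923 and effects between 0.18 and 0.21.

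The lactate exporter Slc16a3 (ENSMUSG00000025161) had the second-largest mean oxygen effect, 0.57 ± 0.14, which missed the threshold (edgeR adjusted p = 0.0707). It had 4.97, 4.57 and 4.42 CPM in flox normoxia, and 6.37, 5.38 and 5.69 in flox hypoxia. KO normoxia gave 6.50, 5.32 and 5.82 CPM, and KO hypoxia 15.6, 7.55, 9.38 and 8.51. Hypoxic libraries again lay above normoxic ones in both genotypes. The value of 15.6 belongs to KO hypoxia replicate 1. Without it the mean effect was 0.43 with an adjusted p of 0.0152, and without KO hypoxia replicate 2 it was 0.63 with an adjusted p of 0.0273, so the gene was called when either was left out.

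Hk2 (ENSMUSG00000000628), which commits glucose to the cell and docks on mitochondria, had oxygen effects of opposite sign in the 2 genotypes, neither of them called. It had 4.63, 4.30 and 3.59 CPM in flox normoxia and 3.86, 3.45 and 2.92 in flox hypoxia, ranges that overlap, with a difference of -0.29 ± 0.16 (edgeR adjusted p = 0.821). KO libraries had 4.24, 3.91 and 4.90 CPM in normoxia and 6.91, 4.83, 5.27 and 5.78 in hypoxia, with a difference of 0.39 ± 0.14 (adjusted p = 0.21). The difference between these effects was 0.68 ± 0.21, with an unadjusted p of 0.00545 and an adjusted p of 0.607. Averaged over genotypes the oxygen effect on Hk2 was 0.05 ± 0.10 (adjusted p = 0.898), and 0.00 without KO hypoxia replicate 1.

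Pgk1 (ENSMUSG00000062070), the phosphoglycerate kinase, showed a small and even shift. Its levels were 240.3, 236.3 and 245.9 CPM in flox normoxia and 251.7, 247.1 and 253.2 in flox hypoxia, against 258.6, 259.2 and 249.3 in KO normoxia and 273.1, 262.6, 273.1 and 270.5 in KO hypoxia. The hypoxic libraries lay above the normoxic ones within both genotypes, yet the mean effect of 0.07 ± 0.02 was not called (edgeR adjusted p = 0.256). Slc2a3 (ENSMUSG00000003153), the neuronal glucose transporter GLUT3, lay the other way. It had 184.8, 176.2 and 215.7 CPM in flox normoxia, 184.5, 184.2 and 175.5 in flox hypoxia, 191.9, 175.1 and 193.8 in KO normoxia, and 166.6, 180.6, 169.5 and 169.5 in KO hypoxia. The groups overlapped, and the mean oxygen effect was -0.10 ± 0.04 (adjusted p = 0.342).

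Several genes that are strong hypoxia markers in other settings varied widely between libraries of a group. Car9 (ENSMUSG00000028463), a cell-surface carbonic anhydrase, had 0.341, 0.602 and 0.359 CPM in flox normoxia, 0.579, 0.386 and 0.358 in flox hypoxia, 0.254, 0.456 and 0.523 in KO normoxia, and 1.84, 0.631, 0.610 and 0.560 in KO hypoxia. The mean oxygen effect of 0.59 ± 0.32 was not called (edgeR adjusted p = 0.497) and was 0.29 without KO hypoxia replicate 1, the library at 1.84. In KO every hypoxic library lay above every normoxic one, by 1.14 ± 0.43 (unadjusted p = 0.0181, adjusted p = 0.232), or by 0.54 without that library (adjusted p = 0.579). Ddit4 (ENSMUSG00000020108), a stress-induced inhibitor of mTORC1, ranged from 36.5 to 61.4 CPM in flox normoxia (36.5, 42.1, 61.4), and had 52.1, 56.1 and 47.5 in flox hypoxia. In KO it had 48.0, 33.7 and 41.7 in normoxia and 79.8, 58.7, 51.4 and 64.0 in hypoxia, which do not overlap. Its oxygen effect was 0.63 ± 0.17 in KO (adjusted p = 0.0878) and 0.39 ± 0.12 on average (adjusted p = 0.166). Without flox normoxia replicate 3, the library at 61.4, the average was 0.51 and passed (adjusted p = 0.0231).

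Adm (ENSMUSG00000030790), which encodes adrenomedullin, had 0.718, 0.815 and 2.60 CPM in flox normoxia and 2.05, 1.59 and 2.37 in flox hypoxia. KO normoxia was at 3.98, 3.11 and 3.12, and KO hypoxia at 5.90, 1.87, 2.89 and 2.49. The mean oxygen effect was 0.23 ± 0.30 (edgeR adjusted p = 0.822), and 0.01 without KO hypoxia replicate 1, the library at 5.90. Ankrd37 (ENSMUSG00000050914), an ankyrin-repeat protein, had its 3 lowest values in flox normoxia, at 2.05, 2.29 and 2.17 CPM. The other groups had 2.43, 3.07 and 3.30 (flox hypoxia), 3.18, 3.01 and 2.74 (KO normoxia), and 3.32, 3.21, 2.86 and 2.44 (KO hypoxia). Its oxygen effect was 0.43 ± 0.15 in flox (adjusted p = 0.567) and -0.01 ± 0.14 in KO (adjusted p = 0.99), a value near 0 whose sign changed with the processing.

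**Figure D2:**
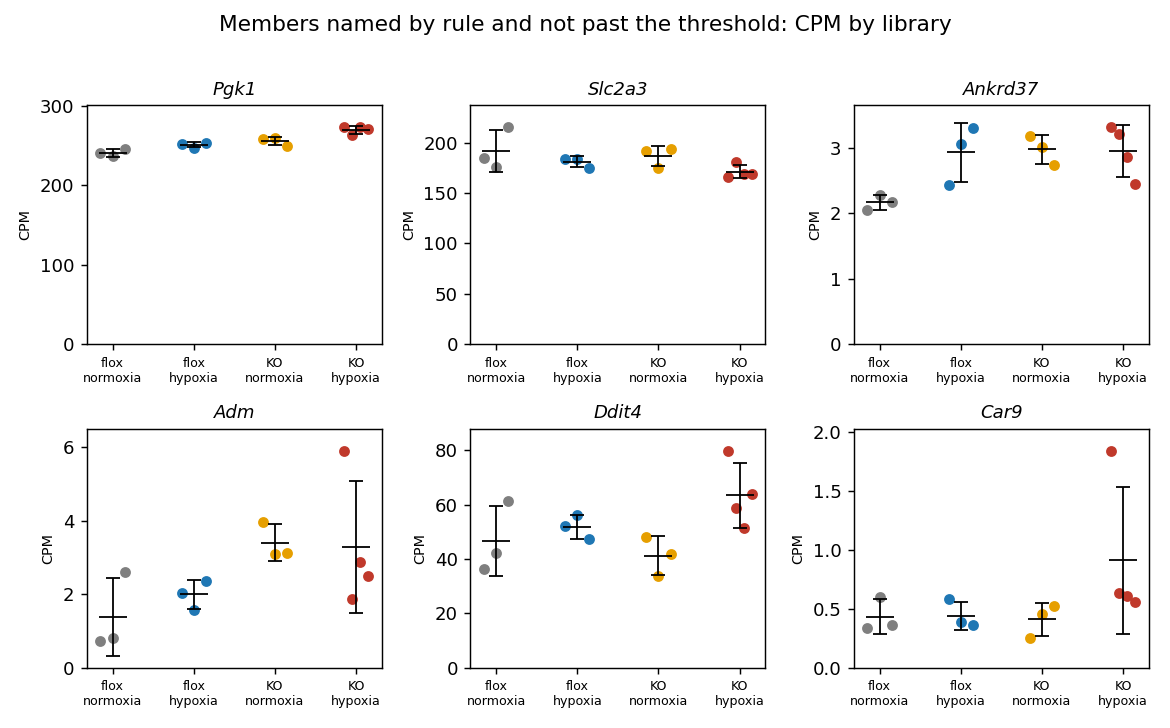
CPM (vertical axis, from 0) in each library of the 4 groups for 6 genes that passed the threshold in no contrast, with the group mean and SD as black bars. Single libraries stand apart for Car9 (1.84) and Adm (5.90) in KO hypoxia and for Ddit4 (61.4) in flox normoxia.

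More members separated by oxygen than were called. In flox, 10 of 36 had all hypoxic above all normoxic libraries and none the reverse (6.56% and 5.98% of all genes). In KO, 12 lay wholly above and 3 wholly below (6.59% and 6.04% of all genes). The 3 below were Hk1, Pfkm and Eno2, which held 98.6%, 68.5% and 75.7% of the RPKM of their steps in flox normoxia. Tpi1, Pgk1, Slc16a3, Bnip3 and Bnip3l separated upward in both genotypes. No member separated across all 7 hypoxic and all 6 normoxic libraries, as did 0.462% of all genes.

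Of glycolysis genes outside the 36, a list of 26 with 25 tested, 1 rose with hypoxia, in KO and on average, and none fell. This was Slc16a1, the lactate and ketone transporter MCT1, at 0.41 ± 0.08 in KO (edgeR adjusted p = 0.0288). In flox none passed, nor was any under an unadjusted p of 0.05. Of 41 further HIF-linked genes, 40 tested, none passed in flox, 5 rose in KO and 4 rose on average. Among those in KO were Vegfa (0.60 ± 0.10), the vessel growth factor, Ndufa4l2 (1.06 ± 0.21), which is also a pericyte marker, Plod2 (0.39 ± 0.08), a collagen lysyl hydroxylase, and the transcription repressor Bhlhe41 (0.35 ± 0.06). Without KO hypoxia replicate 1, Ndufa4l2 (0.86) and Plod2 (0.39) missed the threshold (adjusted p 0.0574 and 0.0589). None of the 40 fell. Among all genes, 0.897% were called for oxygen in KO and 1.05% on average. Vegfa had 60.6, 65.5 and 75.5 CPM in flox normoxia and 108.9, 90.4 and 105.1 in flox hypoxia, which do not overlap. Its flox difference of 0.59 ± 0.11 missed the threshold (edgeR adjusted p = 0.111), although it was as large as in KO, and passed with DESeq2 (adjusted p = 0.000103). The difference between the 2 genotypes in this effect was 0.01 ± 0.14 (adjusted p = 0.993). In flox, at an unadjusted p under 0.05, 6 were higher and 2 lower.

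Endothelial loss of Pdcd10 was accompanied by higher levels of some glycolytic genes. In hypoxia 7 of 36 members rose in KO against flox and none fell (9.06% of all genes called, 6.78% higher and 2.28% lower). These were the enzymes Hk2, Pfkl, Eno1 and Ldha, the lactate exporter Slc16a3, the pyruvate dehydrogenase kinase Pdk1, and the mitophagy receptor Bnip3l. In normoxia 1 of 36 rose, Eno1, and none fell (2.33% of all genes called, 1.96% higher and 0.369% lower). The change of the KO effect with oxygen was not called for any member (0 of 36, 0% of all genes called). At an unadjusted p under 0.05 it was positive for Hk2 and negative for Ankrd37, against 7.26% of all genes, and DESeq2 and limma called none of the 36 either. A KO effect particular to hypoxia is therefore not shown for any of the 36.

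**Figure D3:**
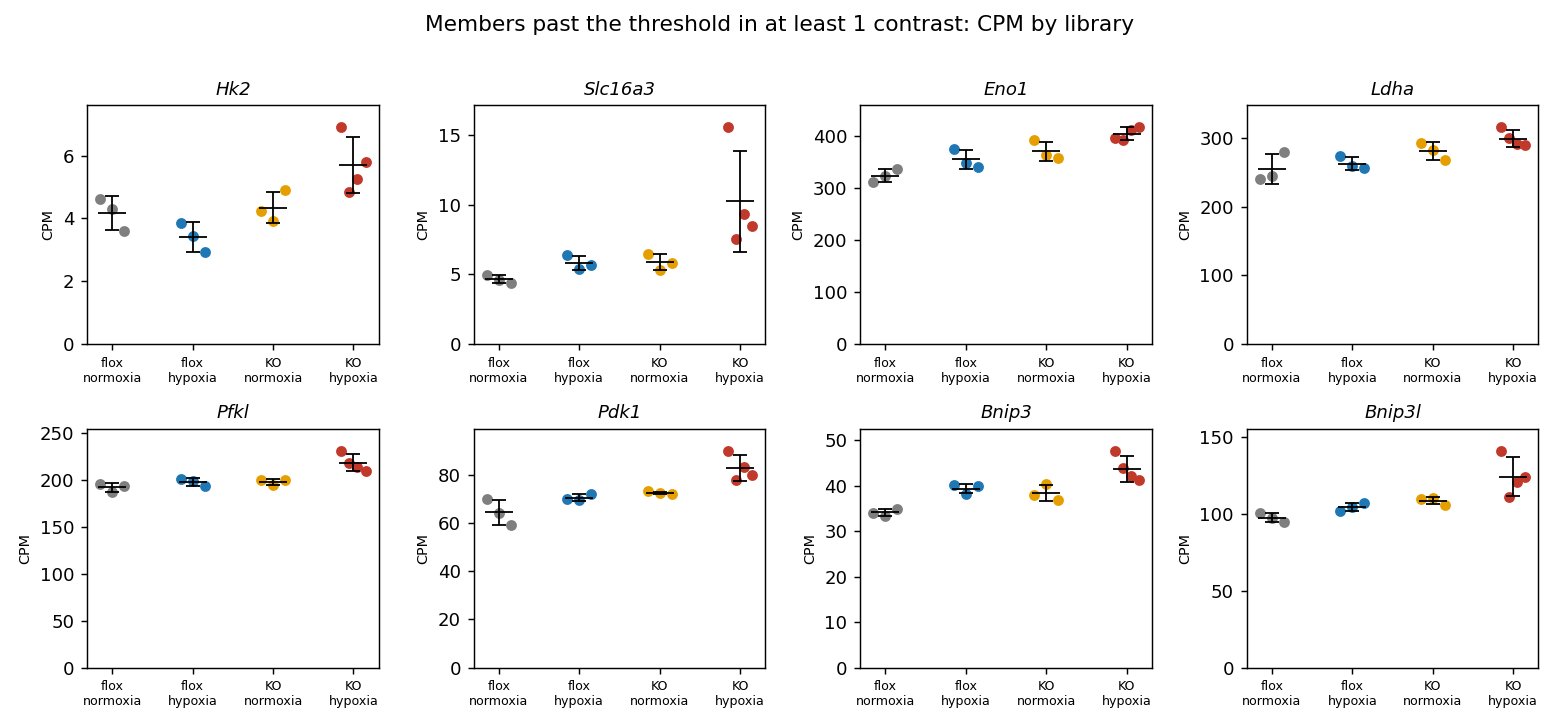
CPM (vertical axis, from 0) in each library of the 4 groups for the 8 genes past the threshold in at least 1 contrast, with the group mean and SD as black bars. KO hypoxia has the highest mean in each panel, and the flox hypoxia and KO normoxia groups lie close together for most of them.

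The largest KO effects in hypoxia were those of the 2 rarest genes among the 7. Slc16a3, whose library values are given above, was higher in all 4 KO libraries than in any flox library, by 0.82 ± 0.19 (edgeR adjusted p = 0.0127). Without KO hypoxia replicate 1 it stayed called. It missed the threshold without flox hypoxia replicate 2 (0.77, adjusted p = 0.071) or replicate 3 (0.80, adjusted p = 0.0518). Hk2 was higher in KO in hypoxia by 0.74 ± 0.15 (adjusted p = 0.00422), with no overlap between the 4 KO and the 3 flox libraries, and was called whichever library was left out. In normoxia the Hk2 difference was 0.06 ± 0.15 (adjusted p = 0.924), with overlapping libraries, and -0.04 without flox normoxia replicate 3 or KO normoxia replicate 3.

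Eno1 (ENSMUSG00000063524), the widely expressed enolase, was the single member called at both oxygen levels. It had 310.5, 322.8 and 335.8 CPM in flox normoxia and 391, 363.5 and 356.4 in KO normoxia, a difference of 0.20 ± 0.05 (edgeR adjusted p = 0.0475). In hypoxia it had 374.2, 348.3 and 340.6 in flox and 394.9, 390.8, 411.3 and 416.4 in KO, a difference of 0.19 ± 0.05 (adjusted p = 0.0176). The groups did not overlap at either level. The normoxic call sits at the threshold. It was lost when flox normoxia replicate 1 or 2, any KO normoxia library, flox hypoxia replicate 2 or 3, or KO hypoxia replicate 3 was left out (effects from 0.16 to 0.22, adjusted p from 0.0526 to 0.223). The hypoxic call was lost without flox hypoxia replicate 2 or 3 (0.17 and 0.16, adjusted p 0.0931 and 0.0966). With the counts of Eno1b added, the differences were 0.18 at both levels (adjusted p 0.0311 in normoxia and 0.00752 in hypoxia). With a term for Xist or Y-linked transcripts, both calls were lost (0.20 in normoxia, adjusted p = 0.0513, and 0.17 in hypoxia, adjusted p = 0.0577). Xist prevailed in 0 of 3 flox hypoxia and 2 of 4 KO hypoxia libraries. With the replicate number as a block both were lost as well (adjusted p 0.0668 and 0.0592).

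Ldha (ENSMUSG00000063229), the lactate dehydrogenase subunit that favours lactate formation, had 272.9, 258.7 and 255.9 CPM in flox hypoxia and 315.5, 299.6, 291.2 and 289 in KO hypoxia. These do not overlap, and the difference was 0.19 ± 0.05 (edgeR adjusted p = 0.0422). In normoxia it had 239.6, 244.7 and 280 in flox and 292.8, 282.5 and 267.5 in KO, which overlap (0.14 ± 0.06, adjusted p = 0.287). The hypoxic call was lost without any of the 3 flox hypoxia libraries, without KO hypoxia replicate 1, 2 or 3, or without KO normoxia replicate 2, with effects from 0.16 to 0.22 and adjusted p from 0.0518 to 0.152. It was also lost with the term for Xist or Y-linked transcripts (0.19, adjusted p = 0.0768) and with the replicate block (0.20, adjusted p = 0.0636). Pfkl (ENSMUSG00000020277), the liver-type phosphofructokinase, had 201, 199.4 and 193.5 CPM in flox hypoxia and 231.2, 218, 214.3 and 210.3 in KO hypoxia. That difference, 0.14 ± 0.04, is small but clear of overlap (adjusted p = 0.0331). Its normoxic values were 196.4, 187.3 and 193.9 in flox and 200.1, 194.6 and 200.6 in KO (0.04 ± 0.04, adjusted p = 0.725). The Pfkl call was lost without any of the 3 flox hypoxia libraries or without KO hypoxia replicate 1 (0.11 to 0.15, adjusted p from 0.0735 to 0.135), and, narrowly, with no filter on low counts (adjusted p = 0.0519).

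Pdk1 (ENSMUSG00000006494) phosphorylates pyruvate dehydrogenase and so keeps pyruvate out of the mitochondrial cycle. Its levels were 69.8, 69.3 and 72.0 CPM in flox hypoxia and 89.8, 77.9, 83.2 and 79.9 in KO hypoxia, and 69.7, 64.1 and 59.1 in flox normoxia against 73.0, 72.3 and 72.0 in KO normoxia. KO libraries lay above flox libraries at both oxygen levels, by 0.23 ± 0.06 in hypoxia (edgeR adjusted p = 0.0136) and 0.17 ± 0.06 in normoxia (adjusted p = 0.179). Bnip3l (ENSMUSG00000022051), the relative of Bnip3, had 102, 104.6 and 107.3 CPM in flox hypoxia and 140.8, 111.1, 120.8 and 124.2 in KO hypoxia. It had 100.3, 97.5 and 94.6 in flox normoxia and 109.8, 110.2 and 105.7 in KO normoxia. Its libraries also separated at both levels, with differences of 0.25 ± 0.06 (adjusted p = 0.0151) and 0.15 ± 0.06 (adjusted p = 0.283). For both genes the hypoxic call was lost without flox hypoxia replicate 1 (adjusted p 0.0598 for Pdk1 and 0.0752 for Bnip3l) or replicate 2 (0.0695 and 0.0636).

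With single libraries left out, the count of members called for KO in hypoxia was 3 without flox hypoxia replicate 1, 1 (Hk2) without replicate 2 and 3 without replicate 3. The share of all genes called also fell then, to 5.43%, 4.99% and 6.01%. Without KO hypoxia replicate 1, the library that was often highest, 5 members remained (Hk2, Eno1, Slc16a3, Pdk1 and Bnip3l), beside 6.53% of all genes called. Leaving out a flox hypoxia library thus removed more calls than leaving out KO hypoxia replicate 1. Flox hypoxia has 3 libraries and KO hypoxia 4, so these omissions cost unlike precision. Their counts therefore do not show on which library the calls rest.

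Among the members not called for KO in hypoxia, Pgk1 separated without overlap at 0.11 ± 0.03 (edgeR adjusted p = 0.0663), as did Bnip3 at 0.15 ± 0.06 (adjusted p = 0.105) and Gpi1, the glucose phosphate isomerase, at 0.13 ± 0.05 (adjusted p = 0.122). In the other direction Hk1, Pfkm, Eno2 and Pdk3 had every KO library below every flox library, with differences of -0.06, -0.05, -0.08 and -0.15 that were not called. DESeq2 called Eno2 lower, beside 8 members higher and 11.4% of all genes called in either direction. In all, 10 members separated upward and 4 downward in hypoxia (11.5% and 9.37% of all genes), and 13 upward and none downward in normoxia (10.5% and 8.7% of all genes). Adm was among those that separated in normoxia. Its difference of 1.27 ± 0.43 was the largest of any member in normoxia but was not called (adjusted p = 0.177). Without flox normoxia replicate 3, at 2.60 CPM, Adm was called in normoxia beside Eno1.

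Of the glycolysis genes outside the 36, 2 of 25 tested rose with KO in normoxia and 3 in hypoxia, and none fell. The endothelial glucose transporter Slc2a1 (GLUT1) rose by 0.78 ± 0.15 in normoxia and 1.06 ± 0.14 in hypoxia, and Slc16a1 by 0.34 ± 0.08 and 0.57 ± 0.08. Bpgm, the bisphosphoglycerate mutase abundant in red cells, rose by 0.76 ± 0.22 in hypoxia (edgeR adjusted p = 0.0472). It had 45.4, 48.8 and 47.0 CPM in flox hypoxia and 137, 56.4, 62.4 and 61.5 in KO hypoxia, without overlap. Without KO hypoxia replicate 1, the library at 137, the difference was 0.35 and stayed called (adjusted p = 0.000857). The call was lost when any flox library or any KO normoxia library was left out (0.73 to 0.78, adjusted p from 0.0541 to 0.14). DESeq2 did not call it (adjusted p = 0.0605), nor did limma. Of the further HIF-linked genes, 2 of 40 tested rose in normoxia and 11 in hypoxia, again with none lower. Among all genes, 1.96% were called higher with KO in normoxia and 6.78% in hypoxia.

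Markers of vessel and immune cells moved with genotype, and their part in these results was not tested. The summed level of 15 endothelial markers ran from 296.9 to 342.6 CPM in flox normoxia, 391.1 to 435.8 in flox hypoxia, 547.2 to 614 in KO normoxia and 739.4 to 1086 in KO hypoxia, without overlap. All 15 rose with KO in hypoxia, 14 rose in normoxia, and 10 rose with hypoxia on average. Slc2a1 is one of them. The 11 markers of microglia and macrophages summed to 321.5 to 334 CPM in flox hypoxia and 409.5 to 583.7 in KO hypoxia, and 10 of them rose. Pericyte markers did likewise, with sums of 258.9 to 266.1 and 396.5 to 530.7 and 7 of 9 called. None of these markers was at 0 in any library.

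Red cell and neuronal markers differed too, and their part was not tested either. The 8 erythroid markers in the table, most of them globins, summed to 664.2 to 870 CPM in flox hypoxia and 3628 to 17630 in KO hypoxia, the last in replicate 1, and 7 rose. The 12 neuronal markers summed to 11570 to 11900 in flox hypoxia and 10560 to 10910 in KO hypoxia, and 4 fell. Neutrophil markers summed to between 8.40 and 20.7 CPM in KO hypoxia and to at most 8.05 in the other groups. Of the 4 tested 2 rose with KO in hypoxia, and 6 of the 8, Ly6g among them, were at 0 in at least 1 library. Astrocyte markers summed to 5640 to 5711 CPM in flox hypoxia and 5683 to 6936 in KO hypoxia, with 4 of 11 higher and 1 lower. Striatal markers summed to 562 to 831.5 in flox hypoxia and 459.7 to 625.4 in KO hypoxia, and 5 of 10 fell. On average over genotypes 3 of these 10 rose with hypoxia. Of 12 immediate-early genes, which neuronal activity and stress induce, 4 rose with hypoxia on average (median 1.01), with sums of 716.6 to 2250 in flox normoxia, 2203 to 2369 in flox hypoxia, 875.8 to 1122 in KO normoxia and 856.8 to 1875 in KO hypoxia. None of the 12 was called for KO in hypoxia.

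**Figure D4:**
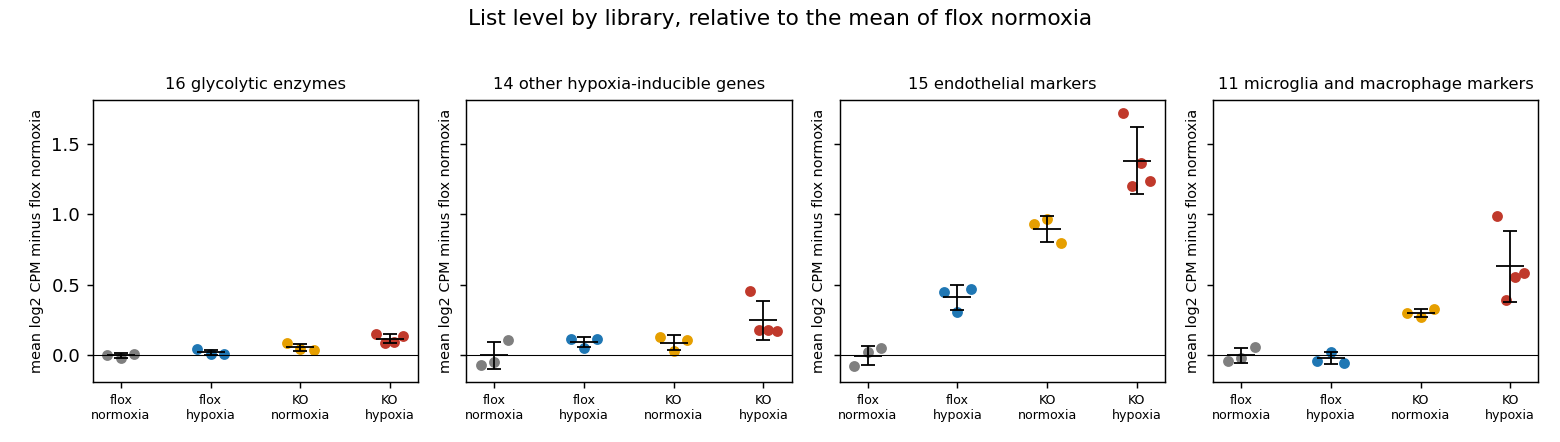
Mean log2 CPM of each list in each library minus its mean in flox normoxia (vertical axis, same scale in all panels) for the 16 enzymes, the 14 other hypoxia-inducible genes, 15 endothelial markers and 11 microglia and macrophage markers, with group mean and SD. KO hypoxia averages 0.12 for the enzymes and 0.25 for the other hypoxia-inducible genes, against 1.38 for the endothelial markers.

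Isozyme balance was compared as ratios of RPKM within a library, which do not depend on scaling between libraries. Of 4 ratios, each tested for oxygen within genotype and for genotype within oxygen level (8 tests), Eno1 over Eno2 differed in both respects. Eno2 is the neuronal enolase. The ratio was 0.307, 0.322 and 0.338 in flox normoxia, 0.383, 0.354 and 0.342 in flox hypoxia, 0.391, 0.368 and 0.374 in KO normoxia, and 0.427, 0.421, 0.445 and 0.439 in KO hypoxia. Each step up separated its libraries, except that flox hypoxia overlapped KO normoxia. The oxygen difference was 0.18 on the log2 scale and the genotype difference 0.25, each with p = 0.00143 by a two-sided exact permutation test, the smallest p that its 700 relabelings allow (adjusted p = 0.00571). Both differences were called with any 1 library left out (adjusted p from 0.0114 to 0.02). Within strata the oxygen difference was 0.16 in flox and 0.20 in KO, and the KO difference was 0.23 in normoxia and 0.27 in hypoxia. As a share of both enolases Eno1 went from 24.3% ± 0.881 in flox normoxia (SD, n = 3) to 30.2% ± 0.519 in KO hypoxia (SD, n = 4). The ratio and the share leave out Eno1b, so the uncertain level of Eno1 described above carries over to both.

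**Figure D5:**
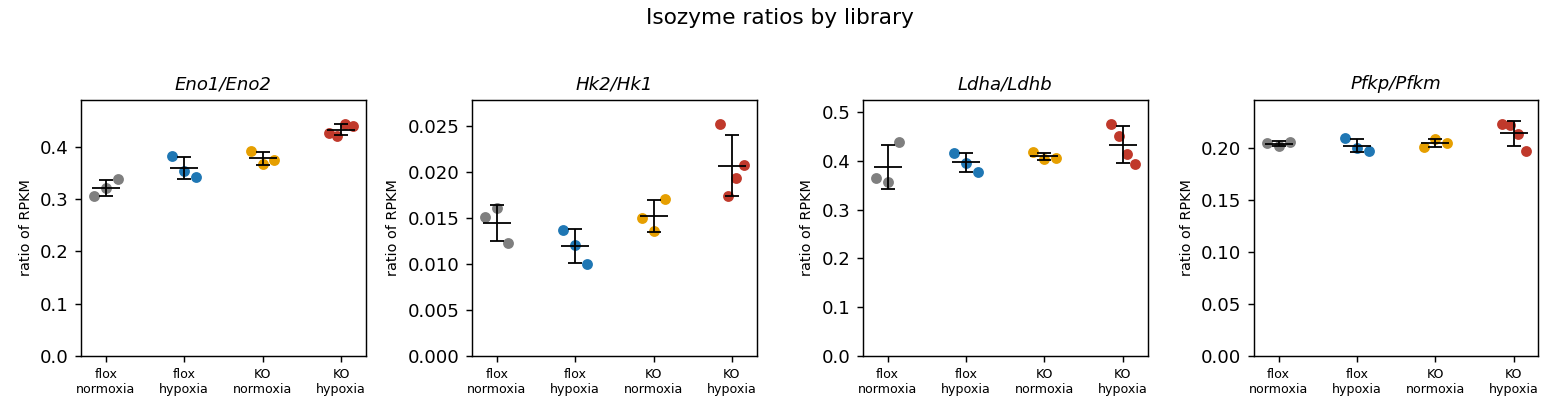
Ratio of RPKM of isozyme pairs (vertical axis, from 0) in each library of the 4 groups, with group mean and SD. Eno1 over Eno2 climbs from a mean of 0.322 in flox normoxia to 0.433 in KO hypoxia, while Pfkp over Pfkm stays near 0.2.

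Hk2 over Hk1 was higher in KO by 0.43 on the log2 scale (two-sided exact permutation p = 0.0186, adjusted p = 0.0495), 0.07 in normoxia and 0.79 in hypoxia. That call was lost in 10 of 13 omissions of a library, all but flox normoxia replicate 1 or 2 and KO normoxia replicate 2 (differences from 0.37 to 0.49, adjusted p from 0.061 to 0.0933). Hk1 held 98.6% of hexokinase RPKM from the 2 genes in flox normoxia and 98% in KO hypoxia. Oxygen gave no call for Hk2 over Hk1 (0.08, exact permutation p = 0.637). Ldha over Ldhb did not pass for oxygen (0.06, exact permutation p = 0.336) or genotype (0.11, p = 0.111), nor did Pfkp over Pfkm (0.03, p = 0.436, and 0.04, p = 0.174).

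Enzymes and other hypoxia-inducible genes are set side by side here. For KO in hypoxia the 16 enzymes ran from -0.08 (Eno2) to 0.74 (Hk2) with a median of 0.06, and 4 rose (6.78% of all genes called higher). The 14 other hypoxia-inducible genes ran from -0.19 (Car12) to 1.04 (Car9) with a median of 0.14, and 1 rose. The median of all genes was -0.01. Without KO hypoxia replicate 1 the medians were 0.07 and 0.09, and Car9 was at 0.44. For KO in normoxia 14 of the 16 enzymes were positive (median 0.05), against 7 of the 14 other genes (median -0.01). Relative to flox normoxia, the mean log2 CPM of the enzymes was 0.02 ± 0.02 higher in flox hypoxia (SD, n = 3), 0.06 ± 0.03 in KO normoxia (SD, n = 3) and 0.12 ± 0.03 in KO hypoxia (SD, n = 4). The corresponding values of the other hypoxia-inducible genes were 0.10 ± 0.04, 0.09 ± 0.05 and 0.25 ± 0.14, with 0.46 in KO hypoxia replicate 1 and 0.17 to 0.18 in the other 3. The difference between the 2 groups of genes was not tested. Genes of oxygen-dependent collagen and chromatin chemistry were among those without a call in any contrast, the prolyl hydroxylase subunits P4ha1 and P4ha2 and the histone demethylase Kdm3a. So were the oxidase Ero1a, the repressor Mxi1, the stress gene Ndrg1 and the mitochondrial protein Higd1a.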

How the data were processed

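The authors deposited raw counts per gene and RPKM values for the same 13 libraries and 55416 identifiers. The submitters' processing notes name HISAT2, edgeR and GRCm39. The sources used here do not give the gene annotation, the strand setting or the handling of reads with several matches. RPKM as deposited are the counts over the column total and a fixed length per gene, with no composition factor.

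Groups and replicate numbers came from the sample titles. The count test was edgeR 4.0.16 under R 4.3.3 (filterByExpr by group, TMM, quasi-likelihood fit with 1 mean per group over all 13 libraries), which left 22507 genes with at least 99.95% of each library's counts. Benjamini-Hochberg adjustment ran over all genes of a contrast. Standard errors come from the F statistic. No library repeated another: pairs within a group gave a chi-square of at least 4.44 per degree of freedom. The labels name no animals, so the p-values cover library-to-library spread, which may be technical. The edgeR test was also run, for some of the contrasts, on counts simulated with its own estimated dispersions. Such counts hold no outlying library, and changes were planted only in well-counted genes. The run therefore says little about outlying libraries or about rare genes such as Car9.

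The 36 genes, the pathway and marker lists and the comparisons were chosen with earlier results of these data known. Values in every library are given for genes past the threshold in any contrast, the 6 with the largest mean oxygen effect, and 8 set genes (Ldha, Pgk1, Hk2, Slc2a3, Bnip3, Ankrd37, Car9 and Adm). Alternatives were other scalings and filters, DESeq2 1.42.0, limma 3.58.1 on log2 RPKM with a pseudocount of 1 or 0.1, a block for the replicate number, a sex term, the compared libraries alone and leaving out each library. Adding the counts of near-identical copies was chosen after seeing the data. Values of some single genes on the pathway lists are left out of the text, although counts include them.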

Additional observations from a re-analysis of the deposited data

Results flagged for a closer look

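In KO hypoxia, the one group with 4 libraries, 40 sets of values were examined for a single library far from the others (Dixon's 95% critical value of the gap to the nearest library over the group's range), of which chance gives about 1 in 20. This held for 5 genes. Car9 was highest in replicate 1 (1.84 CPM, next 0.631, gap 0.945 of the range). Gapdh was highest in replicate 4 (gap 0.994), as was Eno2 (gap 0.907). Gpi1 was lowest in replicate 3 (gap 0.919), as was Pfkm (gap 0.931). For the enzymes the range itself was narrow.

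Pfkm, the muscle-type phosphofructokinase, lay higher in every KO than in every flox library in normoxia and lower in every one in hypoxia. The change of the KO effect was -0.078 on the log2 scale and was not called (edgeR adjusted p = 0.739).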

How the results depend on the processing

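Of the differences printed for single genes, 2 changed direction, both close to 0. The oxygen effect on Ankrd37 in KO, -0.006, became 0.017 without a composition factor, 0.006 and 0.007 with limma (pseudocount 1 and 0.1), 0.072 with the replicate block and 0.021 with a sex term, and ran from -0.065 to 0.077 with single libraries left out. The KO effect on Hk2 in normoxia ran from -0.043 to 0.135 then. The count of members called for oxygen in flox was 0 and for the interaction 0 under every alternative run. The count for KO in hypoxia moved by no more than 1.5 times outside the omissions of a library. For oxygen in KO the count of 0 became 1 without a composition factor, 6 without the filter on low counts and 5 with DESeq2. The shares of all genes called were then 1.09%, 2.15% and 3.35%, against 0.897% in the main test. For the mean oxygen effect the count of 1 became 2, 7 and 5 under these 3 settings, and 2 with near-identical copies added. All genes called then came to 1.13%, 1.78%, 2.68% and 1.06%, against 1.05% in the main test. For KO in normoxia the count of 1 became 2 without the filter (2.56% of all genes called) and with DESeq2 (3.88%). The main test called 2.33%. The count became 0 with the stricter filter (3 or more libraries at 1 CPM or above, 2.95%) and with limma at either pseudocount (1.11% and 1.48%). It was also 0 with a sex term (2.26%) and with the compared libraries alone (2.57%). The causes were not tested. The stricter filter removed Car9, which then has no value. Leaving out single libraries gave 0 to 3 members for oxygen in KO (0.00871% to 2.07% of all genes called). For the mean oxygen effect it gave 0 to 4 (0.312% to 1.48%). For KO in normoxia it gave 0 to 2 (1.09% to 3.26%) and for KO in hypoxia 1 to 8 (4.99% to 11.2%). The log2 differences of Hk2 over Hk1 between genotypes were then 0.37 to 0.49.

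Replicate numbers were not taken as pairs in the main test. Deviations of same-numbered libraries correlated at -0.04 to 0.23. Libraries with different numbers were not correlated for comparison, so pairing is not excluded. With the replicate block the counts were 0 (oxygen in flox), 1 (oxygen in KO), 2 (mean oxygen effect), 0 (KO in normoxia), 5 (KO in hypoxia, without Eno1 and Ldha) and 0 (interaction). In the same order, the shares of all genes called were 0.0222%, 0.773%, 0.933%, 2.27%, 6.98% and 0.00444%.

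Counts limit Car9, Adm, Ankrd37, Hk2 and Slc16a3, whose intervals are wide, and groups of 3 or 4 libraries limit all.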
